A study of Mus musculus with 14 samples.

Results

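Transcripts of 8 genes known as markers of the choroid plexus, Ttr, Kl, Clic6, Folr1, Otx2, Aqp1, Enpp2 and Slc4a5, were followed through every RNA and footprint library of a mouse cortex study. They were found by their gene symbols among the 23412 genes of the count table, and all 8 were present. The genes were selected with the RNA and footprint counts of these same libraries already known, so their levels are given as a description, and no count of members serves as independent evidence. The choroid plexus lies in the brain ventricles and is not part of the cortex, the labelled tissue.

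Control mice had the genotype Rpl22flox/flox;CamKCre+, and knock-out (KO) mice had the genotype Fmr1X-Y; Rpl22flox/flox;CamKCre+, so that the floxed Rpl22 allele and the CamK-driven Cre were shared by both groups. Fmr1 encodes FMRP, an RNA-binding protein of neurons. The source is named CAMKIIa-Ribotag, but total RNA and monosomes were prepared from whole lysates, and the protocols name no step that isolates the ribosomes of the Cre-expressing cells. Age is not given in the sources used here. Total RNA was sequenced from 4 controls (mice 1, 3, 6 and 8) and from 4 KO animals (mice 2, 4, 5 and 7). Ribosome footprints, the mRNA fragments covered by ribosomes, came from 3 controls (mice 1, 3 and 9) and 3 KO animals (mice 2, 4 and 10). Mice 5 and 8, whose RNA libraries are at the centre of what follows, have no footprint library.

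Total counts per library ranged from 8847547 to 11371851 in RNA and from 4124065 to 6033030 in footprints. Levels are given as CPM (counts scaled to a common effective library size), are not scaled by transcript length, and are therefore compared between libraries but not between genes. Fmr1 fell by 1.93 on the log2 scale in KO RNA (edgeR, adjusted p = 4.88e-08) and by 3.93 in KO footprints (adjusted p = 1.21e-53), as the labels state. The RNA libraries were unequally alike. The chi-square per degree of freedom was 1.18 to 1.32 among KO mice 2, 4 and 7 and 1.99 between control mice 1 and 3. It was 5.64 to 6.02 between KO mouse 5 and the other KO mice, and 4.03 to 11.8 between control mouse 8 and the other controls. Control mouse 6 was at 4.12 and 4.56 from control mice 1 and 3. RNA titles share a prefix in mice 1 and 2, in mice 3 and 4 and in mice 5 to 8, so the libraries of mice 5 and 8 share theirs with those of mice 6 and 7. Footprint titles share a prefix in mice 1 and 2, in mice 3 and 4 and in mice 9 and 10.

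As background, the choroid plexus is a sheet of epithelial cells around a vascular core that secretes the cerebrospinal fluid and forms a barrier between blood and that fluid. Its epithelium is known for very strong expression of Ttr (transthyretin), the carrier of thyroxine and of the retinol-binding protein, and for transporters and channels that move bicarbonate, chloride, water and folate. Because the tissue is small and its transcripts are abundant, Ttr is widely used as a sign of choroid plexus in a dissected brain sample. In bulk libraries, a larger number of choroid plexus cells and more RNA per cell cannot be told apart.

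Ttr RNA was far higher in 2 libraries, 1 of each genotype, than in the other 6. In control mice 1, 3, 6 and 8 its level was 3.32, 3.01, 9.62 and 263 CPM, from counts of 33, 29, 87 and 2700. In KO mice 2, 4, 5 and 7 it was 0.976, 0.348, 104 and 2.77 CPM, from counts of 10, 4, 898 and 28. Control mouse 8 and KO mouse 5 therefore stood above every other library of their own genotype, and the ranges of the genotypes overlapped. The 95% Wilson intervals of the plain share of counts were 253 to 273 CPM for control mouse 8, 95.1 to 108 for KO mouse 5 and 7.84 to 11.9 for control mouse 6. Those of control mice 1 and 3 and KO mouse 7 overlapped one another, as did those of KO mice 2 and 4. These intervals cover counting error only. The group means were 69.7 ± 129 CPM in controls and 27.1 ± 51.5 in KO (SD, n = 4 each), so that each SD exceeded its mean.

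**Figure D1:**
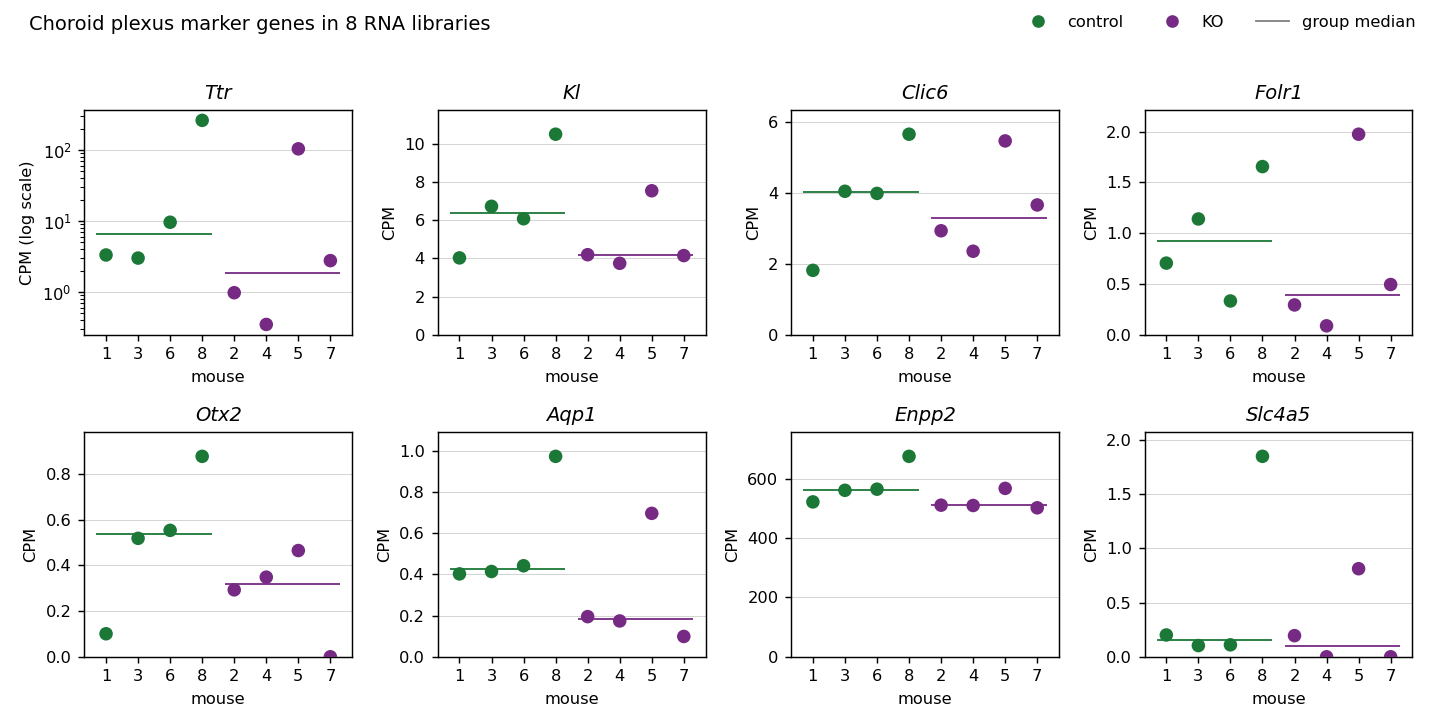
Level of each of the 8 genes in the 8 RNA libraries (vertical axes, CPM, on a log scale for Ttr only; horizontal axes, mouse number), controls in green and KO in purple, with a line at each group's median. Control mouse 8 is the highest control library in all 8 panels, and KO mouse 5 is the highest KO library in all 8.

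Kl encodes klotho, a membrane protein that acts as a co-receptor for FGF23 and is also shed into the cerebrospinal fluid. Its RNA level was 4.03, 6.74, 6.08 and 10.5 CPM in control mice 1, 3, 6 and 8, and 4.20, 3.74, 7.55 and 4.15 CPM in KO mice 2, 4, 5 and 7. Clic6, of the chloride intracellular channel family, was at 1.81, 4.04, 3.98 and 5.65 CPM in the same controls and at 2.93, 2.35, 5.46 and 3.66 CPM in the same KO mice. The highest library of each genotype was again that of mouse 8 or mouse 5 for both genes, and the genotypes overlapped. Enpp2 encodes autotaxin, the secreted enzyme that makes lysophosphatidic acid, and is also expressed by oligodendrocytes. It was at 521, 560, 564 and 675 CPM in the controls and at 510, 509, 567 and 502 CPM in the KO mice. Its spread was narrow: KO mouse 5 lay within the control range, and control mouse 8 was above all other libraries.

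Folr1, Aqp1 and Slc4a5 had few counts. Folr1 encodes a folate receptor that carries folate across the epithelium. Its counts were 7, 11, 3 and 17 in control mice 1, 3, 6 and 8 and 3, 1, 17 and 5 in KO mice 2, 4, 5 and 7, that is 0.705, 1.14, 0.332 and 1.66 CPM against 0.293, 0.0871, 1.98 and 0.494 CPM. Aqp1, a water channel of the apical membrane that red blood cells also carry, had counts of 4, 4, 4 and 10 in controls and 2, 2, 6 and 1 in KO. These were 0.403, 0.415, 0.442 and 0.974 CPM against 0.195, 0.174, 0.697 and 0.0988 CPM. For both genes the libraries of mice 5 and 8 were the 2 highest, and the controls and KO mice overlapped. Slc4a5, a sodium bicarbonate cotransporter of the apical membrane, had counts of 2, 1, 1 and 19 in controls and 2, 0, 7 and 0 in KO. Its level in control mouse 8 was 1.85 CPM and that in KO mouse 5 was 0.813 CPM, against 0 to 0.201 CPM in the other 6 libraries. The counts of 0 in KO mice 4 and 7 allow up to 0.264 and 0.3 CPM, if a count of 0 is taken to allow 3 counts.

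Otx2, a homeodomain transcription factor needed to form and maintain the choroid plexus, did not have its 2 highest values in mice 5 and 8. Its counts were 1, 5, 5 and 9 in control mice 1, 3, 6 and 8 and 3, 4, 4 and 0 in KO mice 2, 4, 5 and 7, that is 0.101, 0.518, 0.553 and 0.877 CPM against 0.293, 0.348, 0.465 and 0 CPM. Control mice 6 and 3 lay above KO mouse 5, at counts that differ by 1. With at most 9 counts in a library, the order of its libraries was not resolved. In the exon columns, an alternative count of the same RNA libraries, control mouse 8 (0.936 CPM, 17 counts) and KO mouse 5 (0.441 CPM, 7 counts) were its highest. Control mouse 3 was close behind there, at 0.436 CPM from 8 counts.

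Promoter windows of 300 bases (250 before to 50 after a RefSeq transcript start, GRCm38.p6) were at hand for Kl, Aqp1, Slc4a5 and Otx2. They are shown for Kl and Slc4a5, members whose 2 highest RNA libraries were the same, and for the Otx2 window that holds the letters TAATCC, the core recognised by Otx-type homeodomains. Capitals mark that match, which reads GGATTA here because it lies on the reverse strand, 211 bases before the start. The windows are chr5:150952357-150952656 (plus strand) for Kl, chr6:83237125-83237424 (plus strand) for Slc4a5 and chr14:48665060-48665359 (minus strand, 1 of 4 windows) for Otx2.
Kl: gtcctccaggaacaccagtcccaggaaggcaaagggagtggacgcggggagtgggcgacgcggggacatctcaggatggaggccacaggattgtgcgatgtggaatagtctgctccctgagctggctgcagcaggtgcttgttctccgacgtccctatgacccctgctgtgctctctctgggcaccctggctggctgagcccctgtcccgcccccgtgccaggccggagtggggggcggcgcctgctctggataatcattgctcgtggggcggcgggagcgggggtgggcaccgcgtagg
Slc4a5: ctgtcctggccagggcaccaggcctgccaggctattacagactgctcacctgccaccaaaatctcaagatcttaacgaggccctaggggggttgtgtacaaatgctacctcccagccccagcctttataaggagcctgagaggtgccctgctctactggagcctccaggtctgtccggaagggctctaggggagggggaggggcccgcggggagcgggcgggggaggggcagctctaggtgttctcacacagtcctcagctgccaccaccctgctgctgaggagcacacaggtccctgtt
Otx2: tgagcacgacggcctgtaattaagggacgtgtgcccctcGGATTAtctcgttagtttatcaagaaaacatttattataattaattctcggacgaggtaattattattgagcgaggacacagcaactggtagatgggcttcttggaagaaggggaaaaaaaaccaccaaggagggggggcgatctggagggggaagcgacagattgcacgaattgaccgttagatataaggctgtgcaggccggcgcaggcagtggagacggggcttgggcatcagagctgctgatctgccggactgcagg
TAATCC or its reverse complement GGATTA was found in 2320 of 32851 promoter windows, or 7.06%. Among the members it was found in 1 of the 4 Otx2 windows and in none of the windows of Kl, Aqp1 and Slc4a5, which says only that these letters are not within those 300 bases. The Kl window was rich in G and C (67.3%, with 19 CpG), against medians of 52.7% and 7 CpG over all windows, and the Slc4a5 window had 62.7% and 6 CpG.

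For 7 of the 8 members, all except Otx2, the libraries of mice 5 and 8 held the 2 highest RNA levels of the 8 libraries in the columns of the main tests. The same was true of 4.99% of the 15291 genes with a summed RNA count of at least 10. That criterion was chosen after these values were seen, and the members were selected on them, so nothing follows from the comparison. The ratios between these 2 single libraries are a description, with intervals of counting error only. Ttr was 2.59 times higher in control mouse 8 than in KO mouse 5 (exact 95% interval 2.40 to 2.80), whereas Enpp2 was 1.22 times higher (1.18 to 1.27) and Kl 1.43 times (1.04 to 1.98). Clic6 had a ratio of 1.06 (0.711 to 1.60), Folr1 of 0.861 (0.413 to 1.79), Aqp1 of 1.44 (0.473 to 4.81), Slc4a5 of 2.34 (0.941 to 6.58) and Otx2 of 1.94 (0.541 to 8.61). The Ttr interval lay above those of Kl, Enpp2, Clic6 and Folr1 and overlapped those of Otx2, Aqp1 and Slc4a5.

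As a description over 8 RNA libraries that share the same 2 high ones, the Pearson r of log2 CPM with Ttr was 0.90 for Kl and Slc4a5, 0.88 for Aqp1, 0.86 for Enpp2, 0.83 for Folr1, 0.79 for Clic6 and 0.54 for Otx2. Outside the members, the 5 genes most like Ttr in RNA, of 1204 with a mean of at least 1 CPM and a range of at least 1 on the log2 scale, were Cort (r = 0.93), Akr1c18 (0.93), Cela1 (0.88), Pxmp2 (0.87) and 1700028P14Rik (0.86). Cort encodes the interneuron peptide cortistatin. Its level was 8.18 CPM in control mouse 8, 5.11 in KO mouse 5, 5.09 in control mouse 6 and 2.15 to 3.76 in the other 5 libraries.

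Markers of endothelium and blood also differed in the libraries of mice 5 and 8, and in that of control mouse 6, whose Ttr was 9.62 CPM. The summed ependymal level did not set mice 5 and 8 apart. It was 30.7 CPM in KO mouse 5, against 29.9 to 37.2 in the other KO mice. In control mouse 8 it was 40.3 CPM, against 39.6 to 45.9 in the other controls. The summed level of 8 endothelial markers was 180 CPM in KO mouse 5, 153 in control mouse 8 and 210 in control mouse 6, below the 273 to 291 CPM of the other 5. None of these markers was at 0, and Pecam1 was at 15.6 and 16.8 CPM in mice 5 and 8 against 20.9 to 28.7 in the others. Of the erythroid genes, the beta-globin gene Hbb-bs (listed as Beta-s) was at 195 CPM in KO mouse 5, 349 in control mouse 6 and 315 in control mouse 8, against 97.4 to 128 in the other 5. Hba-a1, Hba-a2, Hbb-b1 and Hbb-b2 were at 0 in every RNA library. The part of endothelium and blood in the member levels was not tested.

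Between genotypes, no member was called in RNA. Of the 8 genes, 4 (Ttr, Kl, Clic6 and Enpp2) passed the filter on low counts, which asked for about 1 CPM in at least 4 libraries. None of the 4 was called at an adjusted p under 0.05 and none had an unadjusted p under 0.05 with edgeR, nor did any with DESeq2, which gave Ttr no p. Over all 13507 genes tested, 7.51% (1014 genes) were called. That share held for the main fit only. When the close libraries of each genotype were added up, as set out below, 36 of 13669 genes were called. With only mice 5 to 8, 57 of 13488 were called. Both fits also have fewer libraries, and the cause of the drop was not tested. The log2 fold change of KO against control was -1.49 ± 1.24 for Ttr (SE, edgeR, adjusted p = 0.514). It was -0.52 ± 0.27 for Kl (adjusted p = 0.268), -0.15 ± 0.30 for Clic6 (0.812) and -0.15 ± 0.074 for Enpp2 (0.227). The median of the 4 was -0.34, against -0.0010 over all genes tested. Without control mouse 8 the median was 0.018, with 2 of the 4 lower in KO, and without KO mouse 5 it was -0.58. Kl, Clic6 and Enpp2 were at -0.22, 0.11 and -0.070 without control mouse 8, and at -0.77, -0.39 and -0.19 without KO mouse 5. Clic6 also turned in sign without KO mouse 4 (0.024). With no filter, 0 of the 8 members were called, and the estimates were -0.59 for Folr1, -0.89 for Otx2, -1.02 for Aqp1 and -1.36 for Slc4a5.

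The value for Ttr rested on the libraries of mice 5 and 8. It was -5.72 ± 1.84 without KO mouse 5 (edgeR, adjusted p = 0.0668) and 2.24 ± 1.26 without control mouse 8 (adjusted p = 0.266), a change of sign. Leaving out any 1 of the other 6 libraries gave values between -1.89 and -1.03. Without both, an alternative added after seeing the data, Ttr was at 5.32 ± 3.73 CPM in 3 controls and 1.36 ± 1.26 in 3 KO mice (SD), with control values of 3.01 to 9.62 and KO values of 0.348 to 2.77 that did not overlap. Ttr was then lower in KO by 1.97 ± 0.49 on the log2 scale (edgeR, adjusted p = 0.00738), the 1 member called of 4 tested, while 22.7% of all genes tested were called. The libraries left out were those that stand apart on Ttr itself, and KO mice 2, 4 and 7, which then form the whole KO group, are the close libraries described above. Kl (-0.47 ± 0.20, adjusted p = 0.0916), Clic6 (-0.13 ± 0.27, 0.765) and Enpp2 (-0.11 ± 0.042, 0.0690) were not called there. In that fit 2 of 2 erythroid, 6 of 16 leptomeningeal and 6 of 8 hypothalamic genes tested were called lower as well. Of 8 endothelial genes 0 were called, and 4 of 6 markers of cortical neurons were called higher. When the counts of KO mice 2, 4 and 7 were added up and entered as a single library, and likewise those of control mice 1 and 3, Ttr was at -0.95 ± 1.42 (edgeR, adjusted p = 0.854). Within the prefix shared by mice 5 to 8, it was at -1.40 ± 0.83 (adjusted p = 0.515).

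**Figure D2:**
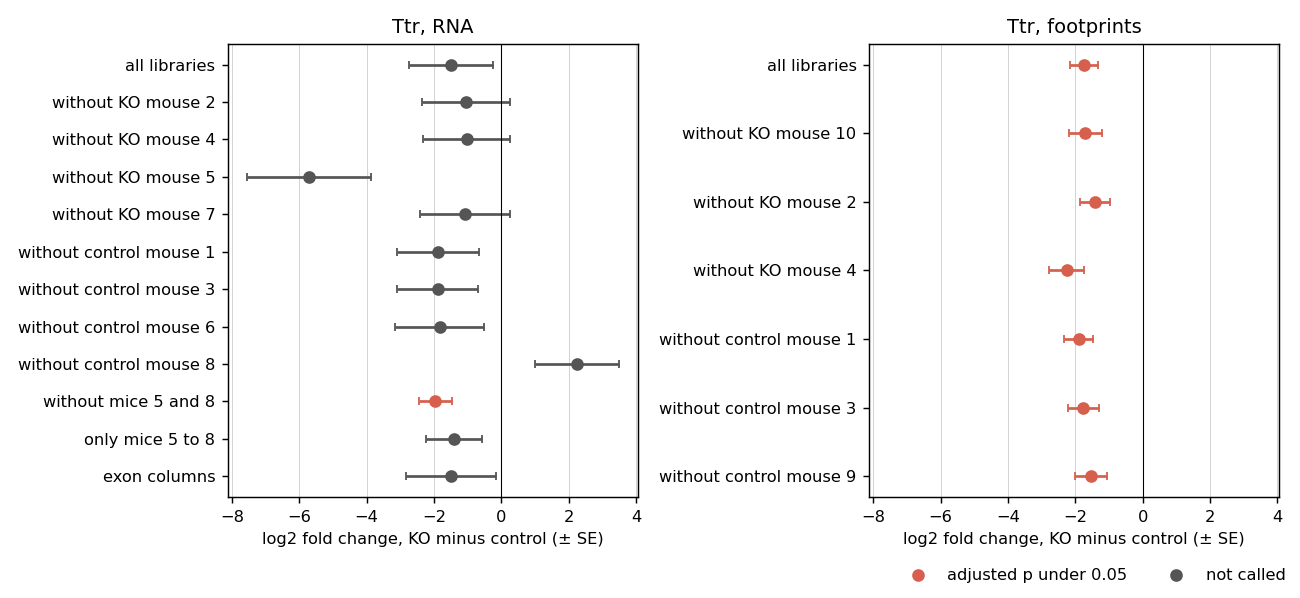
Log2 fold change of Ttr, KO minus control (horizontal axes, with SE), in RNA (left) and footprints (right) for all libraries and for fits that leave libraries out or use other columns (vertical axes); red points have an adjusted p under 0.05. In RNA the value runs from -5.72 without KO mouse 5 to 2.24 without control mouse 8; in footprints all 7 values lie between -2.25 and -1.42.

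In footprints, where neither mouse 5 nor mouse 8 was sampled, Ttr was low in every library and lower in all 3 KO mice than in all 3 controls. Its level was 2.60, 3.73 and 4.78 CPM in control mice 1, 3 and 9, from counts of 11, 22 and 27. In KO mice 2, 4 and 10 it was 0.474, 1.79 and 1.05 CPM, from counts of 2, 8 and 5. The share of all genes whose footprint groups do not overlap was not counted, so the lack of overlap is a description only. Ttr footprints fell by 1.75 ± 0.41 on the log2 scale (SE, edgeR, adjusted p = 0.000450), with group means of 3.70 ± 1.09 and 1.10 ± 0.66 CPM (SD, n = 3 each). The filter asked for 2.21 CPM in at least 3 libraries, and Ttr passed it through the 3 controls alone, with no KO library above it. With no filter its value was -1.75 ± 0.40 (edgeR, adjusted p = 0.000505). DESeq2 left it without an adjusted p (log2 fold change -1.75, unadjusted p = 0.00184). Among footprints 25.7% of 12158 genes tested were called and 13.7% were called lower in KO, and Ttr was the 1 member of 4 tested that was called. The call was kept in each of the 6 fits that left out 1 library, with adjusted p-values between 0.000215 and 0.0129.

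The other members were not called in footprints. Kl was at 2.60, 4.07 and 3.72 CPM in control mice 1, 3 and 9 and 2.61, 2.24 and 3.35 CPM in KO mice 2, 4 and 10 (log2 fold change -0.37 ± 0.33 SE, edgeR, adjusted p = 0.455). Clic6 was at 7.32, 6.11 and 4.08 against 2.61, 6.05 and 5.86 CPM (-0.22 ± 0.26, adjusted p = 0.600). Enpp2 was at 595, 573 and 569 against 574, 549 and 579 CPM (-0.027 ± 0.029, adjusted p = 0.536). All 3 overlapped between genotypes, and Enpp2 varied by an SD of only 13.8 CPM among controls and 16.0 among KO mice. The median of the 4 tested members was -0.29, against 0.0060 over all genes. With 1 library left out, the median ran from -0.46 (without KO mouse 10) to -0.18 (without KO mouse 2). Clic6 turned to 0.061 without KO mouse 2 and was at -0.43 without control mouse 9.

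Folr1, Otx2, Aqp1 and Slc4a5 were below the filter in footprints, with at most 8 counts in a library. Folr1 counts were 0, 3 and 0 in control mice 1, 3 and 9 and 0, 5 and 1 in KO mice 2, 4 and 10. Otx2 counts were 0, 8 and 2 against 4, 2 and 2, and Aqp1 counts were 3, 4 and 1 against 0, 0 and 2. Slc4a5 had 0 or 1 count in each of the 6 libraries. With no filter, none of these 4 genes was called.

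**Figure D3:**
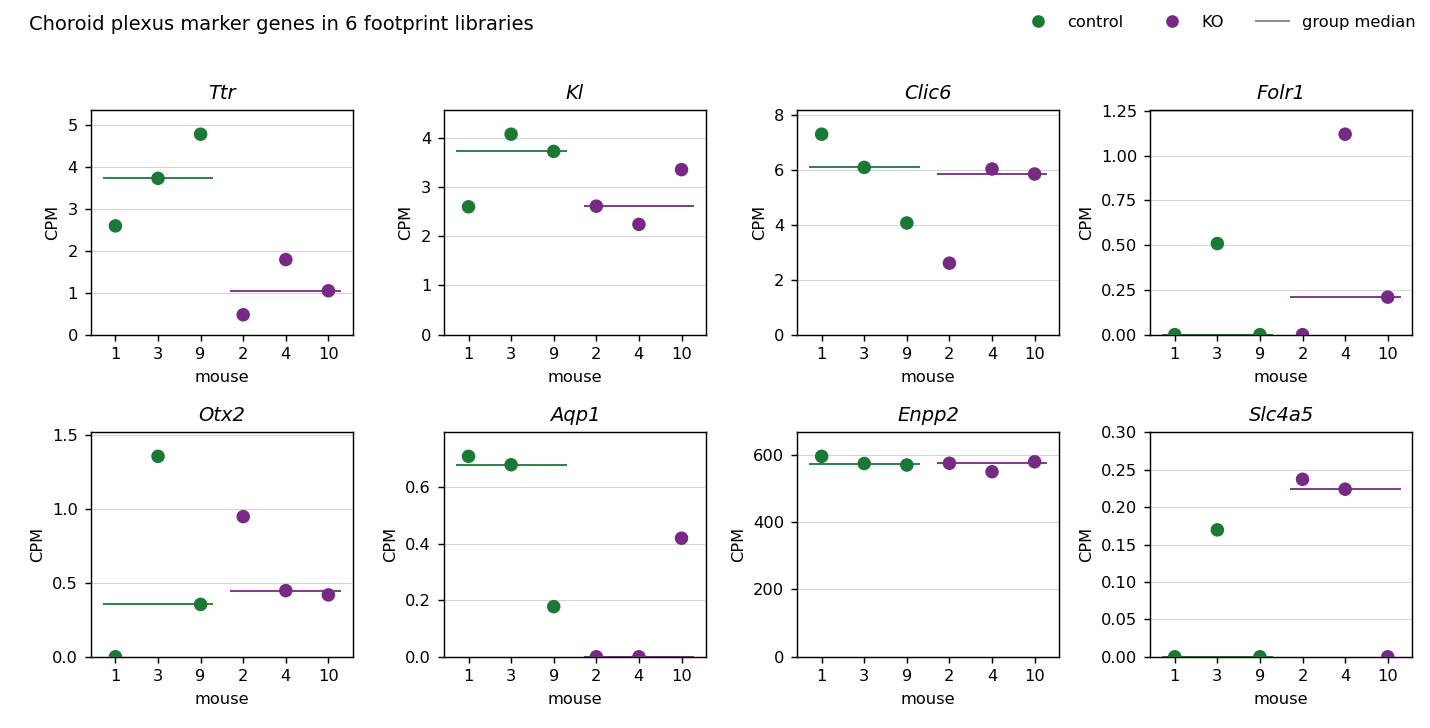
Level of each of the 8 genes in the 6 footprint libraries (vertical axes, CPM; horizontal axes, mouse number), controls in green and KO in purple, with a line at each group's median. Ttr lies between 2.60 and 4.78 CPM in controls and between 0.474 and 1.79 in KO mice, while the groups overlap for each of the other 7 genes.

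Over the 6 footprint libraries, which include neither mouse 5 nor mouse 8, the r with Ttr was 0.53 for Kl, 0.47 for Clic6 and 0.00050 for Enpp2, given as a description and not set against the values in RNA. The other 4 members had too few footprint counts for an r to be read. The genes most like Ttr there, of 1602, were Dynlt1b (r = 0.99), Myof (0.99), Dock6 (0.97), Zglp1 (0.97) and Cd180 (0.97), none of which was among the 5 found in RNA.

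The footprint level per RNA level of a gene, its translational efficiency (TE), was tested as the interaction of genotype and assay over 14 libraries. None of the 4 members tested was called or had an unadjusted p under 0.05 (edgeR, and DESeq2 where it gave one), against 7.43% of 12145 genes called. The adjusted p was 0.985 for Ttr, 0.908 for Kl, 0.943 for Clic6 and 0.504 for Enpp2. For Enpp2, the member with the most counts, the TE difference was 0.12 ± 0.092 on the log2 scale. For Ttr it was -0.24 ± 5.34 with all libraries, 3.97 ± 6.40 without mouse 5, -3.98 ± 3.24 without mouse 8 and 0.20 ± 0.84 without both. Its sign also turned without mouse 3 (0.14 ± 6.42) or mouse 6 (0.11 ± 6.35), and none of these values was called. For mice 1 to 4, which were in both assays, Ttr was at 3.32 and 3.01 CPM in control RNA and 2.60 and 3.73 CPM in control footprints, against 0.976 and 0.348 CPM in KO RNA and 0.474 and 1.79 CPM in KO footprints.

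RNA counts were deposited in a pair of columns per library, and the ratio of the column whose header ends in exon to the other differed among the members. Summed over libraries it was 1.29 for Ttr, 1.18 for Enpp2, 1.27 for Folr1, 1.38 for Slc4a5, 1.64 for Kl, 1.77 for Otx2, 2.21 for Clic6 and 4.42 for Aqp1, against 1.83 for all counts. The exon columns lifted Aqp1 over the filter, with a log2 fold change of -0.35 ± 0.42 (SE, edgeR, adjusted p = 0.664), and gave Ttr -1.51 ± 1.34 (0.535).

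A list of 34 other choroid plexus genes, of which 33 were in the table, was examined for the pattern of the members. Kcne2, a potassium channel subunit of the epithelium, had 2 counts in KO mouse 5, 2 in control mouse 8 and none in the other 6 RNA libraries. Mfrp, a membrane frizzled-related protein, had 8 and 9 counts in mice 5 and 8, 1 in KO mouse 7 and none in the other 5. Of the 29 genes of the list with a summed count of at least 10, 5 (Sostdc1, Trpv4, F5, Steap1 and Mfrp) had their 2 highest RNA levels in mice 5 and 8. Sostdc1, a secreted BMP antagonist, was at 1.39 CPM in KO mouse 5 and 1.85 in control mouse 8, against 0.395 to 1.11 in the others. Kcne2, Mfrp and Sostdc1 were named here after their values were seen. Of the 33 genes, none was at 0 in control mouse 8, against 2 to 5 in each of the other RNA libraries, 5 of them in KO mouse 5. The most abundant genes of the list in RNA were Sulf1, Ace, Col9a3 and Slc29a4, and none of these had its 2 highest levels in mice 5 and 8. The summed level of the list was 161 CPM in KO mouse 5 and 181 in control mouse 8, against 141 to 143 in the other KO mice and 156 to 163 in the other controls. Much of that sum came from abundant genes that varied little beside Ttr, such as Ace (22.7 to 28.6 CPM) and Sulf1 (26.4 to 37.0). Col9a3 was at 19.9 CPM in control mouse 8, below the other controls (28.8 to 32.6). Expression of the list's genes outside the choroid plexus, and its part in the values below, was not tested.

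Between genotypes, 1 of 20 genes of the list tested in RNA was called: Kcnj13, a potassium channel of the apical membrane, was lower in KO. Its level was 2.11, 3.11, 2.99 and 2.73 CPM in control mice 1, 3, 6 and 8 and 1.56, 1.13, 1.86 and 1.09 CPM in KO mice 2, 4, 5 and 7. The groups did not overlap, the log2 fold change was -0.97 ± 0.24 (SE, edgeR, adjusted p = 0.0238), and control mouse 8 lay within the range of the other controls. The call did not hold in every fit that left out 1 library (adjusted p between 0.0147 and 0.0916, the call being lost without KO mouse 2, 4 or 7 or control mouse 3 or 6). It was also lost with the exon columns, with the close libraries summed and with only mice 5 to 8. The median of the 20 was -0.21, and 1 of 20 is no larger a share than the 7.51% of all genes called in RNA. At an unadjusted p under 0.05 there were 9 of 20 by edgeR, with no share of all genes at that threshold to set beside it.

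In footprints 5 of the 17 genes of the list tested were called, all lower in KO, with a list median of -0.36. Over all genes tested, 25.7% were called and 13.7% were called lower. Kcnj13 fell by 1.13 ± 0.32 (SE, edgeR, adjusted p = 0.00448), from 4.48, 5.43 and 4.25 CPM in controls to 1.66, 2.24 and 2.51 CPM in KO mice. Col9a3, a collagen chain, fell by 0.79 ± 0.10 (adjusted p = 1.08e-09), from 46.5, 38.8 and 46.6 CPM to 21.8, 27.1 and 26.8 CPM. Lower as well were Slc29a4, a monoamine transporter (-0.54 ± 0.19, adjusted p = 0.0284), Lbp, the lipopolysaccharide-binding protein (-0.58 ± 0.21, 0.0305), and Msx1, a homeodomain factor (-1.02 ± 0.40, 0.0479). The calls of Col9a3 and Kcnj13 were kept when any 1 footprint library was left out, and those of Slc29a4, Lbp and Msx1 were not. The highest adjusted p in those fits was 0.212, 0.140 and 0.218 for these 3 genes. With the title prefix as a block in the fit, Msx1 was not called, and Col8a1 was (-0.58, edgeR, adjusted p = 0.0481). Sulf1 (-0.21), Ace (-0.16) and Car14 (0.30), abundant genes of the list, were not called. At an unadjusted p under 0.05 there were 8 of 17 in footprints. No gene of the list was called in TE, with 1 of 17 at an unadjusted p under 0.05 by edgeR. For neither count is the share of all genes at that threshold given.

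**Figure D4:**
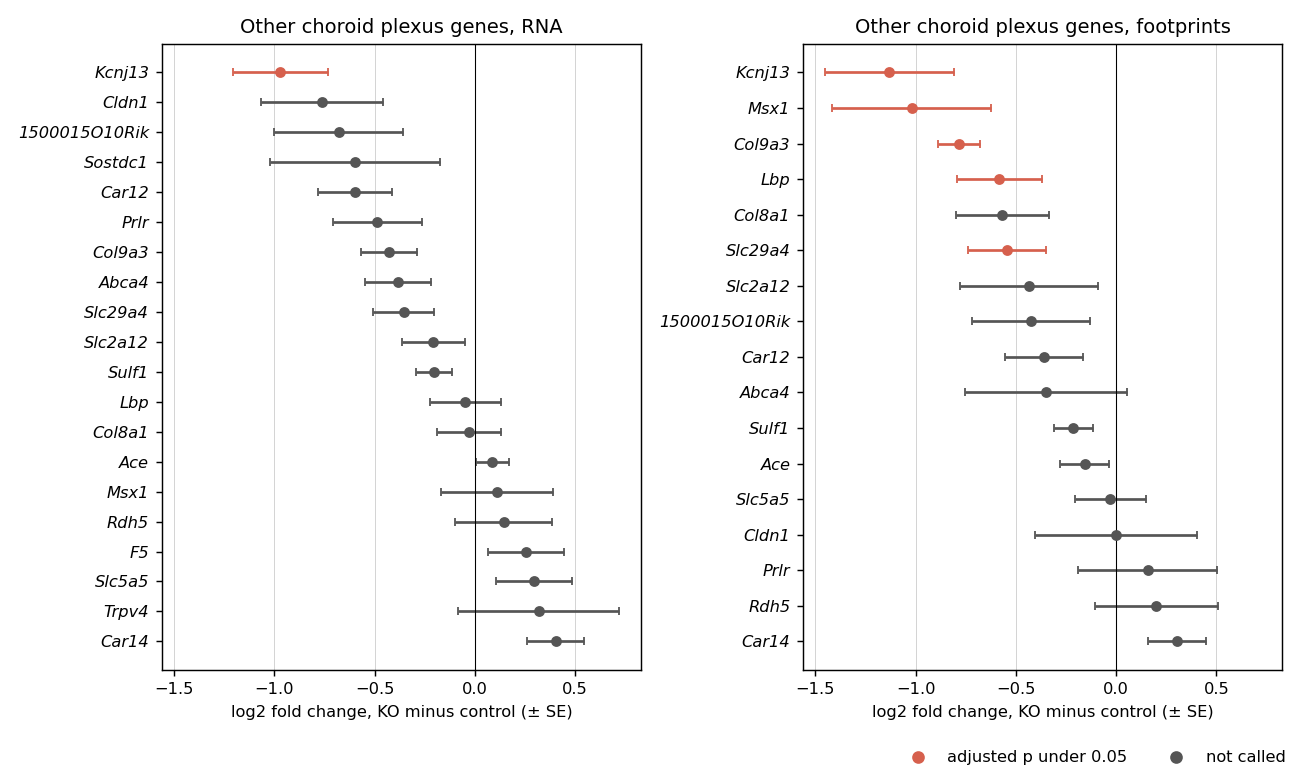
Log2 fold change, KO minus control (horizontal axes, with SE), of the genes on the list of other choroid plexus genes that were tested in RNA (left, 20 genes) and in footprints (right, 17 genes); red points have an adjusted p under 0.05. Kcnj13 is the lowest in both panels, and the 5 genes called in footprints lie between -1.13 and -0.54.

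Genes around the members' own functions were examined from lists, whose counts are to be read against the 7.51% of all genes called in RNA and the 25.7% called in footprints. Among 10 genes of thyroxine and retinol handling, with which Ttr works, 0 of 9 tested were called in RNA and 4 of 8 in footprints, 2 in each direction. Among them the receptor Thra (-0.15) fell, while the deiodinase Dio2 (0.44) and the receptor Thrb (0.42) rose (edgeR, adjusted p = 0.00364, 0.00201 and 0.00455). The calls of Thra and Thrb, and those of Adam10, Bace1 and Atp1b1 given next, were lost in at least 1 fit without 1 footprint library (highest adjusted p 0.0781, 0.129, 0.146, 0.133 and 0.114). The partner genes of klotho gave 0 of 4 calls in RNA and 2 of 4 in footprints, with Adam10, a protease that can release klotho, at 0.17 and Bace1 at -0.19. Of the folate genes, 0 of 11 were called in RNA and 2 of 10 in footprints, the mitochondrial enzyme Shmt2 at -0.40 and Mthfd1 at -0.22. In the lysophosphatidic acid pathway downstream of Enpp2, 0 of 6 were called in RNA and 1 of 4 in footprints, the phosphatase Plpp3 (listed as Ppap2b) at 0.16. Of 7 ion transport genes, none was called in RNA and 2 were called lower in footprints, among them the sodium pump subunit Atp1b1 (-0.051).

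Family members of Aqp1, Slc4a5, Enpp2, Clic6 and Otx2 gave 4 calls of 15 in RNA and 3 of 13 in footprints, beside the same shares of 7.51% and 25.7% over all genes. In RNA the astrocyte water channel Aqp4 (-0.46), the red cell anion exchanger Slc4a1 (-0.90) and the oligodendrocyte enzyme Enpp6 (-0.30) fell, and the bicarbonate cotransporter Slc4a4 (0.24) rose (edgeR, adjusted p = 0.00142, 0.0375, 0.0324 and 0.0288). These RNA calls come from the main fit. They are not given with the close libraries summed, where 36 of 13669 genes were called. In footprints Enpp5 (0.26) and Enpp4 (0.30) rose and Slc4a8 (-0.20) fell. With 1 library left out, the calls were lost for Slc4a1, Enpp6 and Slc4a4 in RNA (highest adjusted p 0.131, 0.108 and 0.100) and for Enpp4 and Slc4a8 in footprints (0.126 and 0.0603).

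Marker lists of other tissues next to the ventricles or the cortex are given beside the Ttr footprints, with 25.7% of all genes called in footprints (13.7% lower) and 7.51% in RNA as the background of their counts. The summed footprint level of 16 leptomeningeal genes was 661 to 684 CPM in controls and 384 to 410 in KO mice, and 8 of 16 were called, all lower, among them Col1a1 (-1.18) and Col1a2 (-1.07). Their RNA sum was 313 to 382 CPM in controls and 244 to 272 in KO mice, with 5 of 16 called lower, and none of the 16 was at 0 in any library. With 1 library left out, the calls were lost for Igf2 and Col1a2 in RNA (highest adjusted p 0.0518 and 0.0649) and for Slc47a1 in footprints (0.130). The sum of 10 hypothalamic peptide genes was 154 to 162 against 69.3 to 75.4 CPM in footprints and 60.1 to 93.9 against 31.0 to 35.9 CPM in RNA. Of these, 8 of 8 tested were called in footprints, 7 lower, led by Pmch (-3.23) and Hcrt (-2.58), and 1 higher, Gal (0.88). The calls of Gal and Oxt were lost in at least 1 fit without 1 library (highest adjusted p 0.156 and 0.382). In RNA, 5 of 8 were called, all lower. Ependymal genes summed to 33.8 to 43.0 against 33.0 to 38.7 CPM in footprints, with 1 of 9 called, and to 39.6 to 45.9 against 29.9 to 37.2 CPM in RNA, with 2 of 13 called, both lower. All 3 of these calls (Dnaic2 in footprints, Ccdc153 and Spag16 in RNA) were lost in at least 1 fit without 1 library (highest adjusted p 0.0556, 0.0574 and 0.0841), and Dnaic2 and Spag16 passed the filter through the controls alone. The sum of 6 markers of cortical excitatory neurons, the labelled tissue, was 2493 to 2765 CPM in control RNA and 3135 to 3408 in KO RNA, and 5564 to 5709 CPM in control footprints and 5354 to 5617 in KO footprints. Oligodendrocyte markers, which bear on Enpp2, summed to 5315 to 5850 CPM in control RNA and 4747 to 5059 in KO RNA, and to 8990 to 9147 against 8889 to 8924 CPM in footprints. All RNA calls of these marker lists come from fits that count the close libraries separately. They are not given with those libraries summed, where 36 of 13669 genes were called. The part of these tissues in the Ttr and Kcnj13 values was not tested.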

How the data were processed

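RNA-seq and ribosome profiling of mouse cortex gave 8 RNA and 6 footprint libraries. The authors deposited whole-number counts per gene with no normalization. Per the submitters' processing notes, Bowtie2, STAR 2.5, featureCounts, Subread 1.4.6 and the builds mm9 and mm10 were used. The role of each, the annotation and the strand setting are not given in the sources used here, so reads of overlapping genes cannot be told apart. The RNA columns without a suffix served the main tests, and those whose header ends in exon an alternative.

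Counts were tested with edgeR 4.0.16 (R 4.3.3, quasi-likelihood F test, two-sided, TMM, filterByExpr at a minimum count of 10, group means as terms). Benjamini-Hochberg adjustment ran over all genes tested, and genes are called at an adjusted p under 0.05. SEs come from the F statistic. DESeq2 1.42.0 was an alternative. The code was tested on simulated data. A count of 0 was taken to allow 3 counts, and intervals are at 95%, Wilson's for shares and exact for ratios. Intervals cover counting error only, because they are computed from the counts of single libraries. Reads carry no molecular identifiers, so copies of a molecule cannot be told apart in these counts.

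The members and lists were chosen with earlier results of these data known. Named were all members, up to 4 called genes per list and assay with the largest fold change, the 4 most abundant other choroid plexus genes per assay, and the 5 genes most like Ttr per assay. Some genes that the rule names are not reported here. Mouse numbers come from the labels, which name mice 1 to 4 in both assays. Over 12145 genes the deviations of the same mouse from the group mean correlated at -0.013 to 0.034 between assays. Nothing more is said of separate litters or dissections, and p-values measure the spread between these libraries.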

Additional observations from a re-analysis of the deposited data

Results flagged for a closer look

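In 7 of the 16 sets of 4 RNA libraries examined (8 genes in 2 genotypes), 1 library stood apart by Dixon's ratio, the gap to the nearest other library divided by the range of the set. Its 95% critical value is 0.829 for 4 libraries, and chance exceeds it in about 1 set in 20. The genes were selected with these levels known and the 16 sets share the same 8 libraries, so the number of sets is a description and is not to be read against that rate. Every library that stood apart was that of control mouse 8 or KO mouse 5. Ttr had a ratio of 0.975 in control mouse 8 (263 CPM against 3.01 to 9.62 in the other controls) and 0.977 in KO mouse 5 (104 CPM against 0.348 to 2.77 in the other KO mice). Aqp1 had 0.931 in control mouse 8 (0.974 CPM against 0.403 to 0.442) and 0.839 in KO mouse 5 (0.697 CPM against 0.0988 to 0.195), from at most 10 counts in a library. Slc4a5 had 0.944 in control mouse 8 (1.85 CPM against 0.104 to 0.201). Kl had 0.881 in KO mouse 5 (7.55 CPM against 3.74 to 4.20), and Enpp2 had 0.864 in KO mouse 5 (567 CPM against 502 to 510). The sets of 3 footprint libraries are too small for this ratio.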

How the results depend on the processing

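Of 176 alternative values of the members' fold changes, 169 kept their direction and side of the threshold or moved by less than the spread between libraries, 6 moved and 1 became called. The 1 that became called was Ttr in RNA without mice 5 and 8, an alternative chosen after seeing the data, which gave 1 member called in place of 0. With each RNA library left out in turn, 0 members were called in RNA, with Ttr between -5.72 and 2.24. Members called in footprints were 1 with each library left out and 0 with DESeq2, which gave no adjusted p for 3 of the 4. Plain library sizes moved the footprint median of all genes from 0.0060 to 0.066 and Enpp2 to 0.032. For the other choroid plexus genes in RNA (1 called), the count was 2 with DESeq2, 2 with the exon columns (Col9a3 and Slc29a4, not Kcnj13), 0 with close libraries summed, 0 with only mice 5 to 8, 3 without mice 5 and 8 (Kcnj13, Col9a3 and Car12) and 0 to 2 with 1 library left out. In footprints (5 called) it was 1 with DESeq2 (no adjusted p for 8 of 17), 3 with plain library sizes (1 of them, Car14, higher in KO) and 2 to 5 with 1 library left out. TE with the mouse as replicate block gave 0 members called, with Ttr at 0.77 and Enpp2 at 0.019. It gave 1832 calls over all genes, against 902 in the main fit. Only mice 1 to 4 were in both assays, so with a term per mouse that estimate rests on them alone. The 1832 and 902 calls therefore do not rest on the same libraries. The block changed no member's call. Without mouse 5 or mouse 8, Ttr TE was 3.97 or -3.98. The cause of these changes was not tested. Low counts limit Folr1, Otx2, Aqp1 and Slc4a5.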
